A study of Rattus norvegicus with 17 samples.

Results

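The genes described here are the 8 members of the CGRP and substance P system of sensory neurons: the peptide genes Calca, Calcb, Tac1 and Adcyap1, and the receptor genes Calcrl, Ramp1, Ramp2 and Ramp3. They were listed by gene name, with earlier results of these data known, and are 8 of the 32883 gene rows counted. The study measured single neurons of the dorsal root ganglion, the cluster of sensory cell bodies beside the spinal cord, to compare neuron subtypes that differ in axonal growth. The cells came from the lumbar ganglia (L4 and L5, both sides) of adult naïve male Sprague Dawley rats, with no transgene, deletion or treatment in any of them. All samples form 1 group of 17 batches of picked cells, and 1 batch whose counts repeat those of another was left out, which leaves 16. Of 1040 cells in these batches, the 967 with at least 2000 detected genes were kept, at a median of 139374 unique molecules (UMIs) each and a range of 4307 to 1514406.

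The protocols describe picking both 15 minutes and 72 hours after plating, from at least 5 rats per time point, and mention fluorescently labelled neurons. Neither the time nor the rat of a batch is given, so plating time, animal and batch cannot be told apart. The differences between cell groups below were therefore taken within batches. All 8 of the neuron markers checked (among them Tubb3, Snap25 and Uchl1) were found in every cell group tested, with a summed level of 4282 to 17959 CPM (UMIs of a gene per 1000000 UMIs of the sum or cell). No cell name was shared between the batches used.

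CGRP (calcitonin gene-related peptide) is the main vasodilator released by peptidergic nociceptors, the pain-sensing neurons that also release neuropeptides into skin and spinal cord. Its alpha form is made from Calca, which by another splice choice gives the hormone calcitonin, and its beta form from the neighbouring gene Calcb. Tac1 encodes substance P and neurokinin A, and Adcyap1 encodes PACAP, which are commonly released by the same kind of neuron. The CGRP receptor is the G protein-coupled receptor Calcrl bound to the small membrane protein Ramp1, whereas Calcrl with Ramp2 or Ramp3 gives adrenomedullin receptors.

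Calca and Ramp3 were both higher in the same 2 cell groups below, and the bases before each gene are shown for that reason. They are given 5′ to 3′, from RefSeq on build GRCr8, which is not the build the reads were aligned to (Rnor_6.0, per the submitters' processing notes). Capitals mark TGACG, the core half-site of the cyclic AMP response element, searched on both strands along with the E-box CACGTG.
Calca, chr1:178317589-178317779, minus strand: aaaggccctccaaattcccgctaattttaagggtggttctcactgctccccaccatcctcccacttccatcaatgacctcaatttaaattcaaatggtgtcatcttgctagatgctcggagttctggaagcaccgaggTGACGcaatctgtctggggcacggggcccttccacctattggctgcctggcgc
Ramp3, chr14:85741064-85741313, plus strand: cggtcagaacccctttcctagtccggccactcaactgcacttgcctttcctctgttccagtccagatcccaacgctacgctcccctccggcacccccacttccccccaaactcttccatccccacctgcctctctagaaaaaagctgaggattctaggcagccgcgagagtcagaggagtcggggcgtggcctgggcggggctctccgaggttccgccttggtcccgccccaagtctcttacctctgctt
The 191 bases before Calca held 1 TGACG, which begins 53 bases before the annotated gene, and 12.6% of all 33469 promoters held it in a window of the same length. That window was the first 191 bases of each listed promoter, which need not reach the gene as the Calca bases do. The 250 bases before Ramp3 held neither motif, against 18.2% of all promoters for TGACG and 5.59% for CACGTG at that length. A match is a description of the letters only, and no match says nothing of any factor. Of the 8 members, 6 were in the promoter table, and Calcb and Ramp2 were not.

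Cells were grouped by markers, called gates here: Sst with Nppb (the peptides somatostatin and natriuretic peptide B, of itch neurons), Trpm8 (the cold channel), Clmp, Th (tyrosine hydroxylase), Ntsr1 with Chrna3, Gzmbl3 with Lpar3, Nmu with Lad1, and Pvalb with Vsnl1. In the plain gate a cell needed at least 20 CPM and 2 UMIs of every marker, and cells that met more than 1 gate were left out. UMIs were summed per batch and gate where at least 3 cells were present, which gave 11 sums for Sst+Nppb, 15 for Clmp, 10 for Ntsr1+Chrna3, 8 for Gzmbl3+Lpar3 and 5 for Th. Trpm8, Nmu+Lad1 and Pvalb+Vsnl1 gave fewer than 3 sums each and could not be tested in this way. A second gate, added after the data were seen and called the graded gate, scaled each marker to its 99th percentile and gave a cell to its best gate at 10% of that level or more. It gave 10 sums for Sst+Nppb, 10 for Trpm8, 15 for Clmp, 6 for Th, 12 for Ntsr1+Chrna3, 7 for Gzmbl3+Lpar3 and 3 for Nmu+Lad1. Only 7 cells in 5 batches, at most 2 in a batch, met Pvalb+Vsnl1, and they are given as cells. Of 10 cells that met the plain Pvalb+Vsnl1 threshold, 7 also met that of Clmp.

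The reason for the graded gate was the spread of Sst through the data. Of 905 kept cells outside the graded Sst+Nppb gate, 631 (69.7%) held a Sst UMI, at a median of 10.1 CPM, and 48 of the 90 cells in the plain Sst+Nppb gate also met the graded one. The same measure bears on every abundant peptide: in the other 6 graded gates Sst stood on average at 10.7% to 27.9% of the level of the whole batch. The share of low peptide levels that comes from free or exchanged RNA was not tested. In what follows, differences are log2 values of a gate minus the mean of the other tested gates, each gate weighted equally, with their standard error (SE) from edgeR's quasi-likelihood fit with batch as a term. A difference was called where the p-value, adjusted over all genes by the Benjamini-Hochberg method, was under 0.05, and levels are mean CPM with their SD over batch sums. All gates enter the same fit, so the contrasts share libraries and are not independent. The p-values measure the spread between batch sums, and the labels do not say whether batches are separate animals.

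Calca, the alpha CGRP gene, was highest in the Clmp and Sst+Nppb gates and lowest in Gzmbl3+Lpar3, Nmu+Lad1 and Ntsr1+Chrna3. In the plain gate its level ran from 1313 through a median of 1922 to 2584 CPM over the 15 Clmp sums. Over the 11 Sst+Nppb sums it ran from 824 through 1328 to 2593. These 2 ranges overlapped each other, and the Clmp range lay wholly above those of the 3 gates that follow. The 10 Ntsr1+Chrna3 sums ran from 208 through 339 to 581, and the 8 Gzmbl3+Lpar3 sums from 220 through 325 to 689. The 5 Th sums held 523, 551, 262, 454 and 543 CPM in batches 20, 25, 26, 33 and 34. The Sst+Nppb range, too, lay above all of them.

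The fitted difference of Calca was 1.78 ± 0.13 (SE) in Clmp (edgeR adjusted p = 9.62e-14). Its level there was above the mean of the other gates of the batch in 14 of 14 batches. In batches 20 and 25 the Clmp sum (1939 and 1424 CPM) was below that of Sst+Nppb (2593 and 1639). Counts of batches given from here on compare a gate with that mean in the same way. In Sst+Nppb the fitted difference of Calca was 1.24 ± 0.14 (edgeR adjusted p = 3.85e-08), higher in 9 of 11 batches. Calca was lower in Gzmbl3+Lpar3, by -1.12 ± 0.19 (edgeR adjusted p = 4.31e-05) and in 8 of 8 batches. It was lower in Ntsr1+Chrna3 as well, by -1.08 ± 0.17 (edgeR adjusted p = 0.000129) and in 10 of 10 batches, a call that was lost at a gate threshold of 50 CPM (-0.88, edgeR adjusted p = 0.282). At 50 CPM edgeR called 27 genes in that gate, against 146 at 20 CPM. Th did not pass, at -0.82 ± 0.23 (edgeR adjusted p = 0.0719), although all 5 of its sums were below the mean of the other gates of their batch.

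With the graded gate, which adds Trpm8 and Nmu+Lad1, the order of mean Calca levels was Clmp (1851 ± 375, n = 15), Sst+Nppb (1741 ± 668, n = 10), Trpm8 (698 ± 434, n = 10), Th (504 ± 110, n = 6), Ntsr1+Chrna3 (415 ± 187, n = 12), Gzmbl3+Lpar3 (316 ± 56.3, n = 7) and Nmu+Lad1 (289 ± 97.5, n = 3). Only the step from Sst+Nppb to Trpm8 was larger than the larger SD of the 2 neighbours. The differences in Clmp (1.82 ± 0.14) and Sst+Nppb (1.72 ± 0.16) passed again, as did Ntsr1+Chrna3 (-0.70 ± 0.16, edgeR adjusted p = 0.00894) and Gzmbl3+Lpar3 (-1.22 ± 0.23, edgeR adjusted p = 0.00019). Nmu+Lad1 was lower by -1.38 ± 0.33 (edgeR adjusted p = 0.0131), on 3 sums, and was not called without batch 25 (adjusted p = 0.189) or batch 26 (adjusted p = 0.216). Trpm8 did not differ detectably from the mean of the others (0.08 ± 0.18, edgeR adjusted p = 0.888). Its sums were spread widely, from 165 to 1458 CPM.

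**Figure D1:**
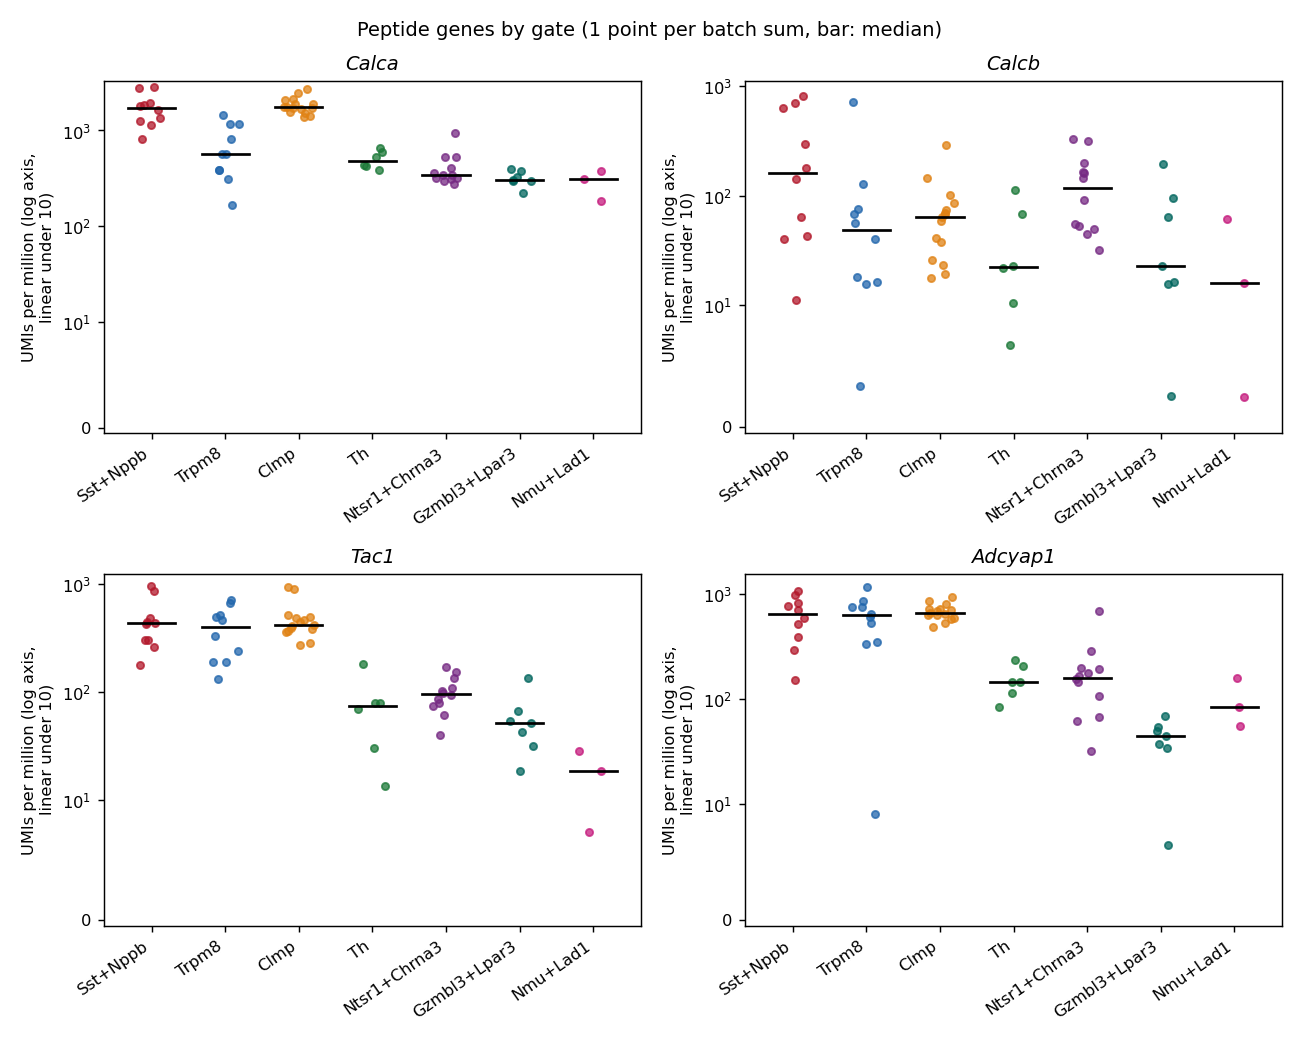
Levels of Calca, Calcb, Tac1 and Adcyap1 in CPM (log axis, linear under 10) for each batch sum of the 7 graded gates, with the median as a bar. Calca sits at 1372 to 2718 in all 15 Clmp sums, whereas Calcb runs from 11.2 to 813 within the Sst+Nppb gate alone.

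No gate was free of Calca. A Calca UMI was present in all cells of each of the 8 graded gates, the 7 Pvalb+Vsnl1 cells included, whose markers are those of proprioceptors, which usually lack CGRP. Those 7 cells held 164 to 1042 CPM with a median of 362, at a median depth of 201042 UMIs, while the 55 Gzmbl3+Lpar3 cells held a median of 300 at a median depth of 372424. The presence of a Calca UMI did not separate the gates, and no gate was read as expressing or lacking Calca from it. Set against the whole batch, mean Calca stood at 184% in Clmp and 167% in Sst+Nppb, and at 27.2% in Nmu+Lad1, 36.9% in Gzmbl3+Lpar3 and 45.0% in Ntsr1+Chrna3. For comparison, Sst stood at 27.9% in Clmp and 12.8% in Nmu+Lad1.

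Tac1, the substance P gene, followed Calca in the Clmp, Sst+Nppb and Gzmbl3+Lpar3 gates. The 15 plain Clmp sums ran from 296 through a median of 443 to 985 CPM, and the 11 Sst+Nppb sums from 183 through 365 to 867. The Gzmbl3+Lpar3 sums ran from 20.4 through 56.7 to 210, all below the lowest Clmp sum. The differences were 2.00 ± 0.19 in Clmp (edgeR adjusted p = 1.59e-10) and 1.27 ± 0.21 in Sst+Nppb (edgeR adjusted p = 4.91e-05). They were -1.38 ± 0.27 in Gzmbl3+Lpar3 (edgeR adjusted p = 0.000388) and -1.07 ± 0.25 in Ntsr1+Chrna3 (edgeR adjusted p = 0.0161), where 10 of 10 batches were lower. The last was not called with the graded gate (-0.36 ± 0.23, edgeR adjusted p = 0.467), nor without batch 20 (-0.92, edgeR adjusted p = 0.0896) or without batch 29 (-1.04, edgeR adjusted p = 0.0546). Where cells of several gates went to the highest gate, neither Tac1 value was called lower (-0.54, edgeR adjusted p = 0.25 in Gzmbl3+Lpar3, and -0.56, edgeR adjusted p = 0.244 in Ntsr1+Chrna3).

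In Trpm8 cells Tac1 was called and Calca was not. Their Tac1 level in the graded gate was 395 ± 208 CPM (n = 10), close to the 479 ± 195 of Clmp (n = 15) and the 468 ± 255 of Sst+Nppb (n = 10), and Tac1 was called higher there (1.67 ± 0.24, edgeR adjusted p = 3.02e-06). The next gate, Ntsr1+Chrna3, was at 99.9 ± 37.4 (n = 12), a step larger than either SD. Tac1 was lowest in Nmu+Lad1, whose 3 sums held 28.5, 7.37 and 18.4 CPM in batches 25, 26 and 29 and were called lower (-3.27 ± 0.57, edgeR adjusted p = 0.00048). Whether Tac1 and Calca differ from each other in Trpm8 was not tested. The cells of this gate also held Clmp, at a mean of 41.6 CPM against 148 in the Clmp gate.

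Adcyap1, the PACAP gene, had the same 3 high gates. Its graded levels were 675 ± 120 CPM in Clmp (n = 15), 625 ± 293 in Sst+Nppb (n = 10) and 601 ± 322 in Trpm8 (n = 10), and 41.7 ± 19.2 in Gzmbl3+Lpar3 (n = 7). The plain Gzmbl3+Lpar3 sums ran from 6.46 through a median of 40.8 to 144, and the Clmp sums from 461 through 629 to 885, with no overlap. Adcyap1 was higher in Clmp by 2.26 ± 0.22 (edgeR adjusted p = 1.91e-10) and in Sst+Nppb by 1.29 ± 0.25 (edgeR adjusted p = 0.000484), and lower in Gzmbl3+Lpar3 by -2.37 ± 0.35 (edgeR adjusted p = 8.31e-06). In the graded gate Trpm8 was higher by 1.74 ± 0.25 (edgeR adjusted p = 3.18e-06). The Pvalb+Vsnl1 cells held 10.5 to 3517 CPM of Adcyap1 with a median of 634, and the highest of them was above the highest of the 243 Clmp cells, at 2482. That highest value is 27 UMIs in a cell of only 7678 UMIs in all, and the next cell held 1257 CPM.

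Calcb, the beta CGRP gene, was called in fewer gates than Calca. Its level in the plain gate ran from 32.3 through a median of 112 to 753 CPM over the 11 Sst+Nppb sums, and from 23.7 through 106 to 354 over the 10 Ntsr1+Chrna3 sums. The Clmp sums, which were highest for Calca, ran from 11.8 through 68.1 to 321. The 5 Th sums held 154, 23.0, 58.2, 61.2 and 20.3 in batches 20, 25, 26, 33 and 34, and the Gzmbl3+Lpar3 sums ran from 2.87 through 27.8 to 196. All 5 ranges overlapped. Calcb was called higher in Sst+Nppb (1.44 ± 0.38, edgeR adjusted p = 0.0147), in 7 of 11 batches, and in no other plain gate. That call was lost without batch 20 (1.19, edgeR adjusted p = 0.105), without batch 25 (1.22, edgeR adjusted p = 0.0687) and with a gate threshold of 10 CPM (1.63, edgeR adjusted p = 0.0811).

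In the graded gate Calcb was again higher in Sst+Nppb (2.13 ± 0.37, edgeR adjusted p = 2.98e-05), in 9 of 10 batches. It was also higher in Ntsr1+Chrna3 (1.25 ± 0.36, edgeR adjusted p = 0.0373) and lower in Gzmbl3+Lpar3 (-1.66 ± 0.53, edgeR adjusted p = 0.0355). The Ntsr1+Chrna3 call was lost without batch 20, 26, 30, 31 or 35, each left out alone (0.95 to 1.21, edgeR adjusted p from 0.0641 to 0.124). The Gzmbl3+Lpar3 call was lost in the same way without batch 20, 24, 29, 31 or 32 (-1.57 to -1.37, edgeR adjusted p from 0.0758 to 0.174). With cells thinned to 30000 UMIs the Ntsr1+Chrna3 call was lost too (0.83, edgeR adjusted p = 0.174). Both calls were lost at a gate share of 0.2 in place of 0.1 (edgeR adjusted p = 0.521 in Ntsr1+Chrna3 and 0.0905 in Gzmbl3+Lpar3). Both were also lost with at least 5 cells per sum (edgeR adjusted p = 0.165 and 0.079). In the order of mean levels, from Sst+Nppb (292 ± 305, n = 10) and Ntsr1+Chrna3 (137 ± 103, n = 12) down to Nmu+Lad1 (26.5 ± 30.7, n = 3), no neighbours differed by more than their SD.

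**Figure D2:**
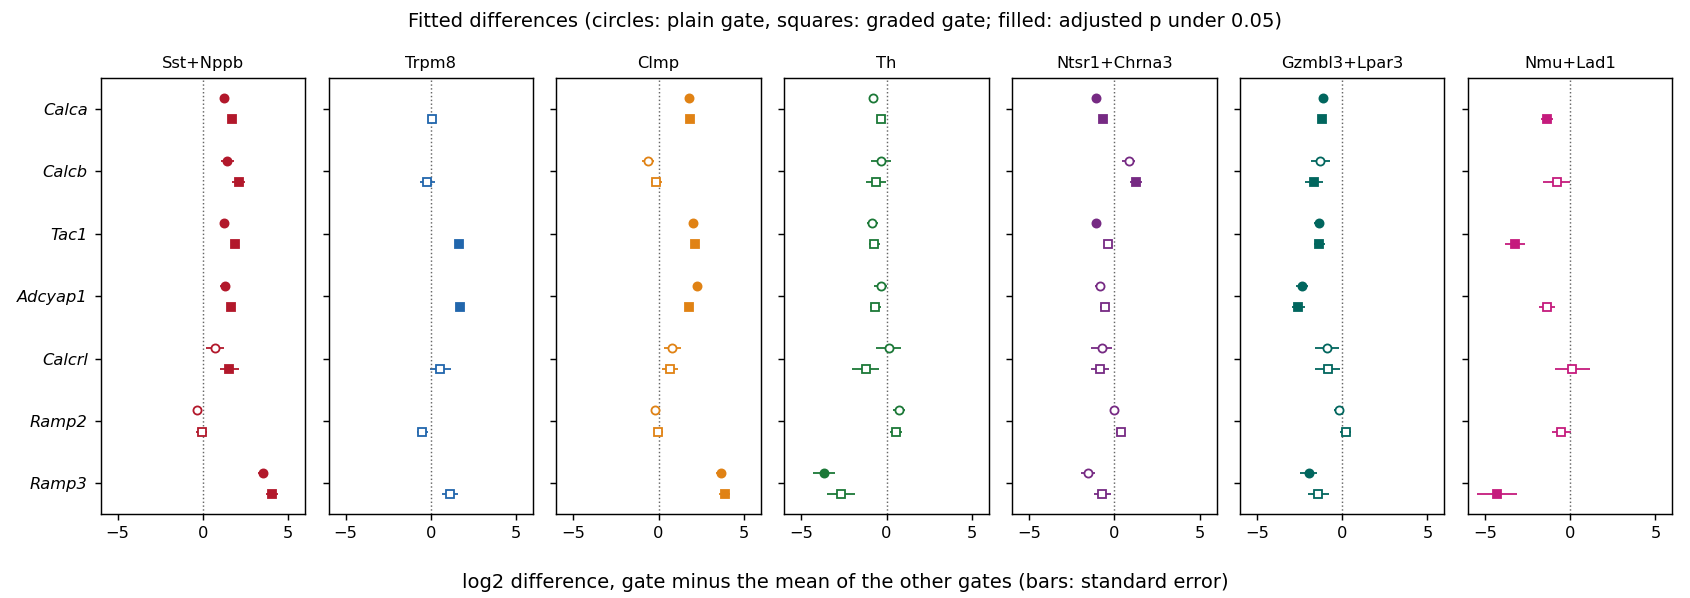
Fitted log2 differences of 7 members, each gate minus the mean of the other gates, with standard errors, for the plain gate (circles) and the graded gate (squares). Filled symbols passed the adjusted threshold: Calca, Tac1, Adcyap1 and Ramp3 are right of 0 in Clmp and Sst+Nppb, whereas Calcb is right of 0 in Sst+Nppb and not in Clmp.

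The ratio of Calca to Calcb compares 2 genes within the same sum and does not depend on the scaling of that sum. Each UMI tags the 3′ end of a molecule, so gene length does not enter. In the plain gate the ratio in the 15 Clmp sums ran from 6.62 through a median of 25.8 to 197 Calca UMIs per Calcb UMI. In the 10 Ntsr1+Chrna3 sums it ran from 1.41 through 2.81 to 13.2, and in the 11 Sst+Nppb sums from 1.99 through 11.2 to 34.8. The 5 Th sums held ratios of 3.39, 23.5, 4.48, 7.40 and 26.2 in batches 20, 25, 26, 33 and 34, and the 8 Gzmbl3+Lpar3 sums ran from 1.53 through 15.7 to 71.5. Calca UMIs outnumbered Calcb UMIs in all of these sums, and in the graded gate in all but 1 Trpm8 sum and 1 Ntsr1+Chrna3 sum, which stood at 0.791 and 0.974.

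Within batches, the log2 ratio in Clmp was 2.55 ± 0.36 (SE) above the mean of the other gates, higher in 14 of 14 batches (exact two-sided sign-flip permutation test, p = 0.000122, adjusted p = 0.00061 over 5 gates). In Ntsr1+Chrna3 it was -2.57 ± 0.37 against the others and lower in 10 of 10 batches (same exact permutation test, p = 0.00195, adjusted p = 0.00488). These 2 results are not separate, since every batch with a Ntsr1+Chrna3 sum also held a Clmp sum, which entered the mean of the others. In batch 30 they were the only gates, at log2 ratios of 6.03 in Clmp and 1.22 in Ntsr1+Chrna3. The difference of Ntsr1+Chrna3 from the gates other than Clmp was not tested. Sst+Nppb (-0.44 ± 0.47, exact permutation adjusted p = 0.452) and Gzmbl3+Lpar3 (-0.03 ± 0.77, exact permutation adjusted p = 0.969) did not pass. Th stood at -0.96 ± 0.61 in 5 batches (exact permutation adjusted p = 0.312), where the smallest p this test can give is 0.0625. With the graded gate Clmp was 1.98 ± 0.35 (13 of 14 batches, exact permutation adjusted p = 0.00171) and Ntsr1+Chrna3 -2.46 ± 0.34 (lower in 12 of 12, exact permutation adjusted p = 0.00171). The Ntsr1+Chrna3 value did not hold at a plain threshold of 50 CPM, where it was -0.07 (exact permutation adjusted p = 1). At 50 CPM only 3 Ntsr1+Chrna3 sums held at least 10 Ramp UMIs, against 10 at 20 CPM, so that value may rest on few batches. Sst+Nppb was at -1.42 at 50 CPM (exact permutation adjusted p = 0.00732).

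**Figure D3:**
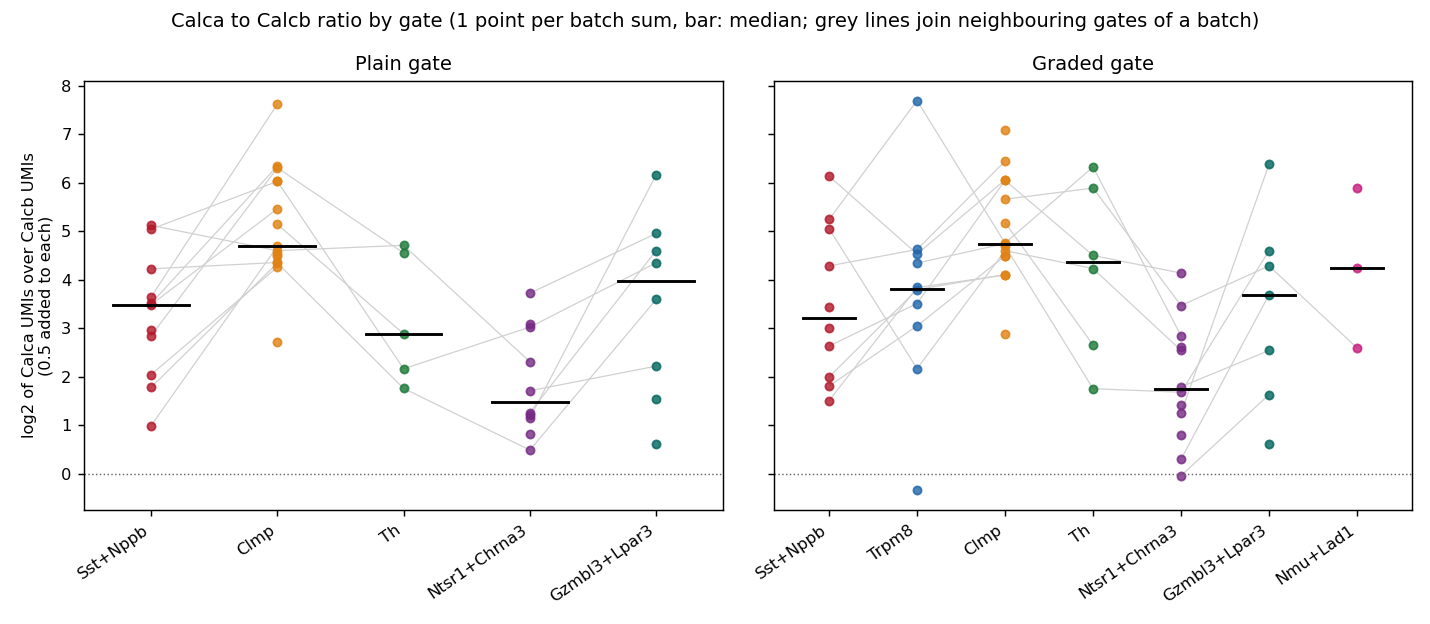
The log2 ratio of Calca to Calcb UMIs in each batch sum, by gate, for the plain and the graded gate, with the median as a bar and lines joining neighbouring gates of a batch. The Ntsr1+Chrna3 sums are the lowest group in both panels, with a median of 1.49 against 4.69 for Clmp in the plain gate.

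The batches differed in this ratio as well. Over all kept cells it was lowest in batch 24, at 2.00, and highest in batch 33, at 32.0, with a median over the 16 batches of 11.03. Calca ran from 679 to 1468 CPM between batches, and Calcb from 28.6 to 383. The share of cells with at least 100 CPM of Calcb was 56.2% in batch 24 and 53.5% in batch 23, and 6.06% in batch 29 and 7.46% in batch 35. Rat, plating time and the mix of cells picked may all differ between batches, and their part in this was not tested.

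A Calcb UMI was present in 694 of 967 cells (71.8%), but most of the summed level lay in few of them. The 97 of 967 cells with the highest level held 70.6% of the summed Calcb level, against 32.4% for Calca, 44.6% for Tac1 and 34.3% for Adcyap1. At least 100 CPM of Calcb was found in 203 of 967 cells (21.0%), spread over all 16 batches. By graded gate these cells were 34.4% of Ntsr1+Chrna3, 33.9% of Sst+Nppb, 25.0% of Trpm8, 18.5% of Clmp, 18.2% of Gzmbl3+Lpar3, 9.38% of Th and 4.00% of Nmu+Lad1 cells, with none among the 7 Pvalb+Vsnl1 cells. Median depth was 173240 UMIs in Clmp and 325707 in Ntsr1+Chrna3. Median Calca was higher in the cells at or above that line than in the cells below it in 6 of these gates: 2347 against 1747 CPM in Clmp, 2085 against 1672 in Sst+Nppb, 1248 against 416 in Th (3 and 29 cells), 665 against 579 in Trpm8, 386 against 371 in Ntsr1+Chrna3 and 359 against 273 in Gzmbl3+Lpar3. In Nmu+Lad1 the 1 such cell held 167 against a median of 263. These are medians over cells, with no test.

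More Calcb than Calca UMIs were found in 44 of 843 cells with at least 20 UMIs of both together (5.22%), in 12 of 16 batches. They were 8 of 61 Ntsr1+Chrna3 cells, 6 of 55 Gzmbl3+Lpar3 cells, 3 of 40 Trpm8 cells, 1 of 24 Nmu+Lad1 cells and 26 of 335 cells with no graded gate. None of 236 Clmp cells and none of 56 Sst+Nppb cells of the graded gate did so, and in the plain gate none of 196 Clmp and 2 of 83 Sst+Nppb cells did. All 3 Trpm8 cells came from batch 24, so that the Trpm8 count without that batch was 0. The 8 Ntsr1+Chrna3 cells came from 5 batches and held 286 to 805 CPM of Calcb. Batches 23 and 24 held 10 each of the 44 cells. The files cannot tell calcitonin from CGRP transcripts of Calca. Calca and Calcb are close relatives, and no source used here says how reads matching both were counted.

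**Figure D4:**
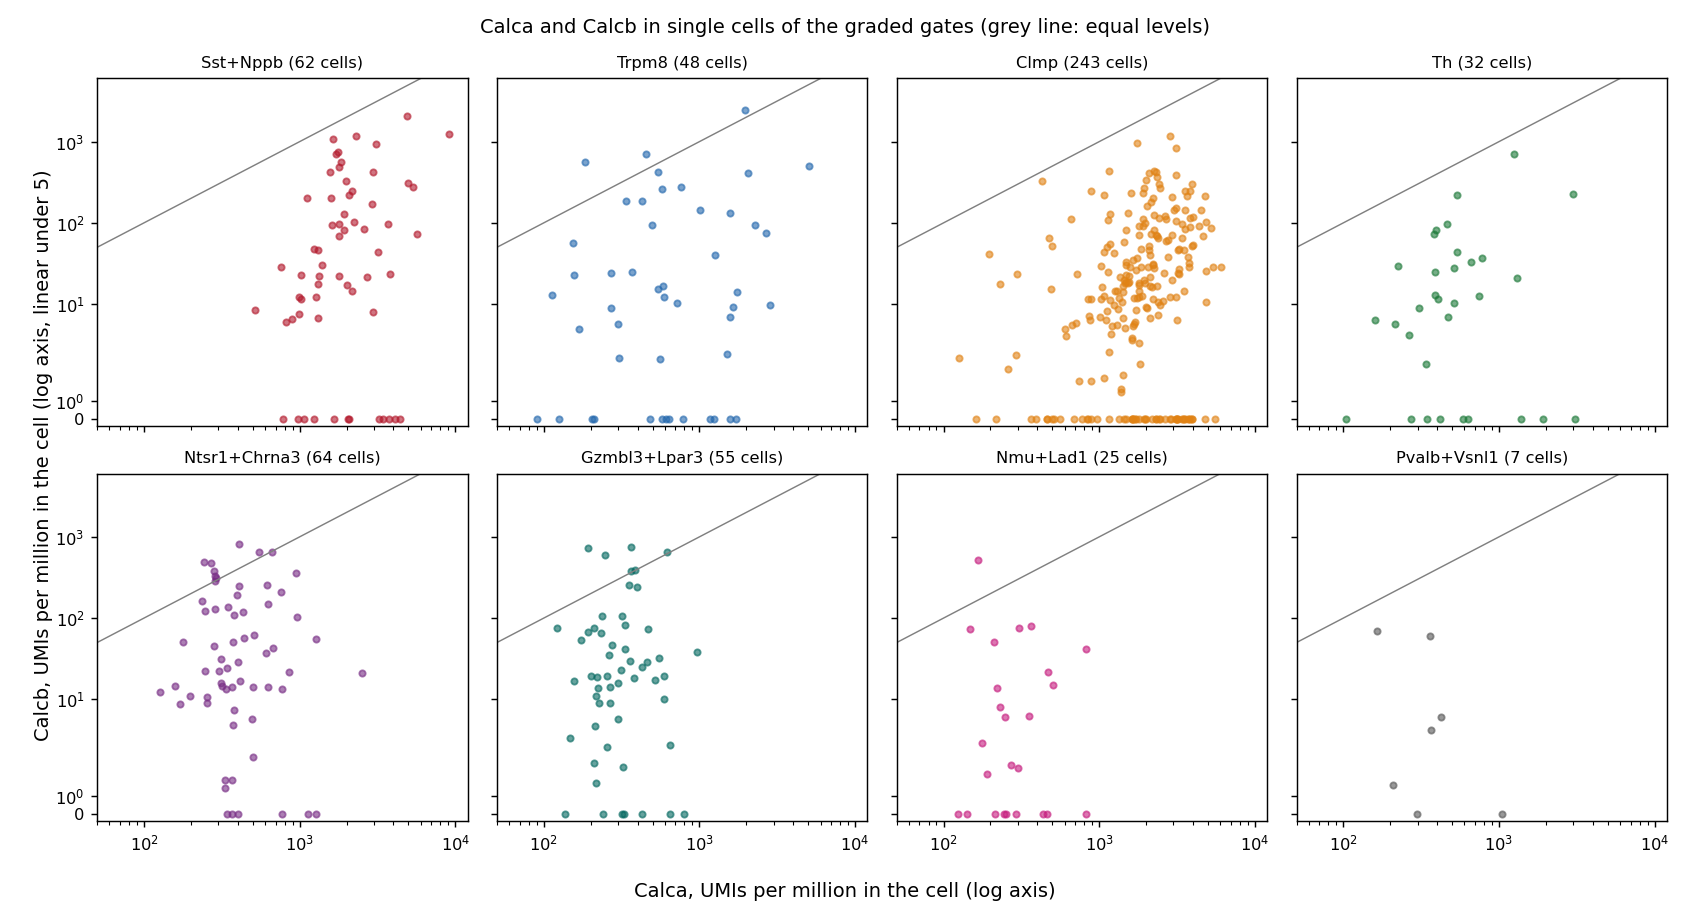
Calcb against Calca in each cell of the 8 graded gates, in CPM (log axes, Calcb linear under 5), with the line of equal levels. In Clmp no cell lies above the line, and in Ntsr1+Chrna3 and Gzmbl3+Lpar3 a few cells do, at Calca levels up to 618.

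The genes most like each peptide gene were taken by Pearson correlation of log2 level over the 49 plain sums, which share batches and gates, among 11772 other genes. For Calca the nearest were Fcgrt (r = 0.89), Tac1 (0.89) and Adcyap1 (0.87), followed in rank 4 by Ramp3 (0.87). For Tac1 they were Calca, Fcgrt (0.79) and Adcyap1 (0.78), and for Adcyap1 they were Chl1 (0.88), Calca and Ndn (0.80). Calcb stood in rank 2204 for Calca, with r = 0.23, and its own nearest genes were Mt3 (0.66), Iscu (0.58) and Tmem41a (0.58). These values describe the sums and carry no test.

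Among the receptor genes, Ramp3 had the widest range. Its plain level ran from 9.73 through a median of 59.7 to 176 CPM over the 15 Clmp sums and from 8.49 through 62.2 to 110 over the 11 Sst+Nppb sums. It ran from 0 through 1.92 to 11.8 over the 10 Ntsr1+Chrna3 sums and from 0 through 2.49 to 5.16 over the 8 Gzmbl3+Lpar3 sums. The 5 Th sums held 1.23, 3.28, 1.04, 1.19 and 1.01 in batches 20, 25, 26, 33 and 34. Every Clmp and Sst+Nppb sum was thus above every Th and Gzmbl3+Lpar3 sum, and the lowest of them overlapped the highest Ntsr1+Chrna3 sum.

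Ramp3 was higher in Clmp by 3.66 ± 0.28 (edgeR adjusted p = 2.97e-13) and in Sst+Nppb by 3.56 ± 0.30 (edgeR adjusted p = 3.47e-11). It was lower in Th by -3.68 ± 0.64 (edgeR adjusted p = 0.00259) and in Gzmbl3+Lpar3 by -1.98 ± 0.49 (edgeR adjusted p = 0.004), and just missed the threshold in Ntsr1+Chrna3 (-1.55 ± 0.42, edgeR adjusted p = 0.0501). The 2 higher calls held in the graded gate, at 3.90 ± 0.33 and 4.07 ± 0.36. The lower calls in Th (-2.67, edgeR adjusted p = 0.103) and Gzmbl3+Lpar3 (-1.41, edgeR adjusted p = 0.171) did not. Where cells of several gates went to the highest gate, the Gzmbl3+Lpar3 value was 0.20 (edgeR adjusted p = 0.869). The 3 graded Nmu+Lad1 sums, 2 of them at 0, were called lower (-4.33 ± 1.18, edgeR adjusted p = 0.0359), but not without batch 25, 26 or 29. In graded Trpm8 sums Ramp3 ran from 0 through 5.94 to 81.4 and was not called (1.15 ± 0.49, edgeR adjusted p = 0.155).

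Calcrl, the receptor subunit that CGRP and adrenomedullin share, was low everywhere. Its plain mean was 9.01 ± 6.72 CPM in Clmp (n = 15), 8.74 ± 8.70 in Sst+Nppb (n = 11), 5.48 ± 6.29 in Ntsr1+Chrna3 (n = 10), 5.28 ± 3.59 in Th (n = 5) and 4.35 ± 4.28 in Gzmbl3+Lpar3 (n = 8). No gate of 5 was called by edgeR's adjusted p, none had an unadjusted p under 0.05, and DESeq2 called none. In the graded gate it was called higher in Sst+Nppb (1.58 ± 0.55, edgeR adjusted p = 0.0464), where the 10 sums ran from 1.72 through 9.43 to 61.1. That call was lost when any of 8 batches was left out (20, 25, 26, 27, 28-1, 30, 33 or 34), with edgeR adjusted p-values up to 0.171.

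Ramp2 did not differ detectably between gates. Plain means ran from 12.0 ± 6.47 in Sst+Nppb (n = 11) to 15.5 ± 9.99 in Gzmbl3+Lpar3 (n = 8), and edgeR called none of 5 plain and none of 7 graded gates. An unadjusted p under 0.05 was reached in 1 plain and 0 graded gates, and DESeq2 called none. Ramp1, the partner that makes the CGRP receptor, did not pass the filter on low counts and was not tested. Its highest plain mean was 1.67 ± 2.80 CPM in Gzmbl3+Lpar3 (n = 8), and the median was 0 in the other 4 gates. The 6 graded Th sums held no Ramp1 UMI, which allows up to 0.499 CPM, for counting error only. Of 967 kept cells, 52 held a Ramp1 UMI, of them 8 of 25 in the Nmu+Lad1 gate, where the highest level was 80.5, and 4 of 243 in Clmp. Median depth was 320511 UMIs in Nmu+Lad1, and at 30000 UMIs per cell the shares were 20.0% there and 0 of 218 Clmp cells. That 0 allows up to 1.38% at the thinned depth only, and at full depth the Clmp share was 1.65%. Of the 109 Ramp1 UMIs in Nmu+Lad1 cells, 59 lay in 1 cell, and the graded sums held 0, 0 and 5.76 CPM in batches 25, 26 and 29. Of the 340 Ramp1 UMIs in all kept cells, 175 lay in batch 31 and 89 in batch 35.

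**Figure D5:**
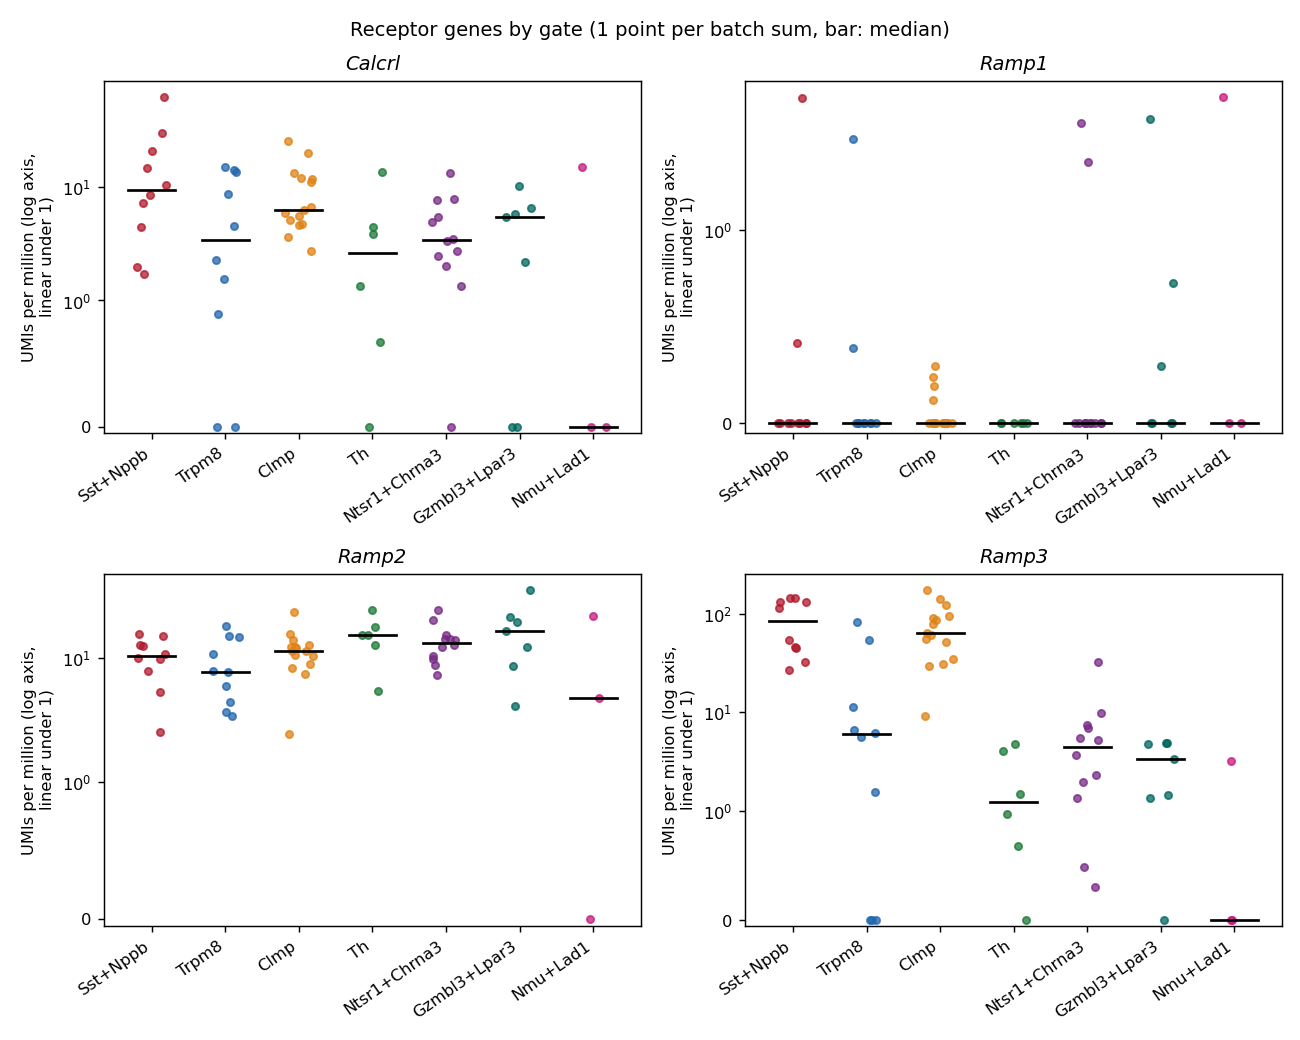
Levels of Calcrl, Ramp1, Ramp2 and Ramp3 in CPM (log axis, linear under 1) for each batch sum of the 7 graded gates, with the median as a bar. Ramp3 has medians of 84.1 in Sst+Nppb and 63.2 in Clmp and at most 5.94 elsewhere, while Ramp2 medians stay between 4.75 and 16.5.

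Taking the 3 Ramp genes together, Ramp3 gave 80.4% ± 17.7 (SD, n = 15) of their UMIs in plain Clmp sums and 73.7% ± 22.2 (n = 11) in Sst+Nppb. Ramp2 gave most in the others, with 86.1% ± 10.7 in Th (n = 5), 76.4% ± 17.1 in Ntsr1+Chrna3 (n = 10) and 72.6% ± 18.2 in Gzmbl3+Lpar3 (n = 7). These shares use sums with at least 10 Ramp UMIs. In graded Trpm8 sums Ramp2 gave 59.2% ± 35.8 and Ramp3 39.5% ± 36.0 over all 10 sums. Over the 6 Trpm8 sums with at least 10 Ramp UMIs the Ramp3 share was 63.0% ± 25.1, a minimum that Ramp3 itself helps to meet. The Ramp1 share was between 0.345% and 12.2% in the plain gates. A Calcrl UMI together with a UMI of any Ramp was found in 239 of 967 cells (24.7%, exact Clopper-Pearson 95% interval 22.0 to 27.6), but with Ramp1 in only 20. At 30000 UMIs per cell the joint share was 20.4% of 49 Sst+Nppb cells (exact interval 10.2 to 34.3), 11.9% of 218 Clmp cells (7.94 to 17.0) and 3.64% of 55 Gzmbl3+Lpar3 cells (0.444 to 12.5). Intervals cover counting error only.

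Calcrl and Ramp2 are also genes of blood vessels. The summed level of 8 endothelial markers, of which 7 were in the rows, ran from 10.5 to 89.8 CPM in plain Sst+Nppb sums, 10.4 to 89.3 in Clmp, 6.56 to 24.6 in Th, 9.89 to 116 in Ntsr1+Chrna3 and 37.9 to 158 in Gzmbl3+Lpar3. Of the 7, 6 held a UMI in Sst+Nppb and in Clmp, 5 in Gzmbl3+Lpar3, and 4 in Th and in Ntsr1+Chrna3. Cldn5 was at 0 in all of these gates, Kdr in Th, Ntsr1+Chrna3 and Gzmbl3+Lpar3, and Emcn in Th and Ntsr1+Chrna3. In Gzmbl3+Lpar3, where this sum reached its highest value, mean Calcrl was the lowest of the 5 gates (4.35 CPM) and mean Ramp2 the highest (15.5 CPM), and neither was called. The 8 glial markers summed to medians of 122 to 220 in the 5 plain gates. All 8 held a UMI in Sst+Nppb, and 7 did in each of the others, where Kcnj10 was at 0. Their part in the Calcrl and Ramp2 levels was not tested.

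By likeness, Ramp3 was nearest to Fcgrt (r = 0.87), Calca (0.87) and Lpar1 (0.80) over the same 49 sums. Calcrl was nearest to Il17d (0.52), Gnas-2 (0.50) and Tcp11l2 (0.48), and Ramp2 to AABR07019086.1 (0.64), Tomm70 (0.61) and Kpna2 (0.57). Calcrl and Ramp2 had no member of the system among their nearest 3. Ramp2 stood at r = -0.27 with Ramp3.

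Read as a group, 7 of the 8 members were tested, and their counts stand beside those of all other genes. In the plain gate 5 of 7 were called in Sst+Nppb, all higher, against 5.67% of 11773 genes, and 4 of 7 in Clmp, all higher, against 19.3%. In Gzmbl3+Lpar3 4 of 7 were called, all lower, against 15.9%, in Ntsr1+Chrna3 2 of 7, both lower, against 1.24%, and in Th 1 of 7, lower, against 0.815%. The median log2 difference of the 7 was 1.27 in Sst+Nppb, 1.78 in Clmp, -1.30 in Gzmbl3+Lpar3, -0.83 in Ntsr1+Chrna3 and -0.34 in Th, where the median of all genes was between -0.03 and 0.04. The 7 passed the low-count filter that Ramp1 failed, so these counts describe the members that could be tested.

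In the graded gate 6 of 7 were called in Sst+Nppb against 13.5% of 12286 genes, all higher, 4 in Clmp against 11.8%, all higher, and 2 in Trpm8 against 6.22%, both higher (Tac1 and Adcyap1). In Gzmbl3+Lpar3 4 were lower against 9.23%, and in Nmu+Lad1 3 were lower against 1.88%. In Ntsr1+Chrna3 1 was higher (Calcb) and 1 lower (Calca) against 3.10%, and in Th none was called against 0.578%. In Th, 2 of 7 members had an unadjusted edgeR p under 0.05, and DESeq2 called 1.

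Of 14 other receptors and relatives of these peptides, 4 passed the low-count filter in the plain gate and 5 in the graded gate. Vip, a peptide gene related to Adcyap1, was higher in Sst+Nppb (1.13 ± 0.26, edgeR adjusted p = 0.00498, mean 1249 CPM against 599 in the other sums) and lower in Gzmbl3+Lpar3 (-1.34 ± 0.39, edgeR adjusted p = 0.015). Tac4, a tachykinin gene like Tac1, was higher in the graded Sst+Nppb gate (2.80 ± 0.72, edgeR adjusted p = 0.00437), at a mean of 43.3 CPM against 4.01. Its highest graded sum, which lay in this gate, held 258 CPM. Tac4 was tested in the plain gate as well and was not called there. Vip was called in the same directions in the graded gate, and the other members of that list were not called by edgeR in either gating. The list thus had 1 of 4 called in plain Sst+Nppb and 1 of 4 in plain Gzmbl3+Lpar3, against 5.67% and 15.9% of all genes. The tachykinin receptor genes Tacr1 and Tacr3 had no UMI in any of the 63 graded sums, and Tacr2 had none in 55 of them. The PACAP receptor gene Adcyap1r1 was at 0 in 51 sums, and Vipr1 was not among the rows.

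Of 11 genes that process or break down peptides, 7 passed the filter. In plain Clmp sums 4 of the 7 were higher, where 19.3% of all genes were called, with a list median of 0.41 against 0.03 for all genes. They included Pam, which amidates CGRP and substance P, at 0.79 ± 0.09 (edgeR adjusted p = 1.41e-08, 373 against 206 CPM) and Pcsk1, a prohormone convertase, at 0.52 ± 0.12 (edgeR adjusted p = 0.00179). In Gzmbl3+Lpar3 2 of 7 were lower, where 15.9% of all genes were called: Pcsk1 (-0.63 ± 0.17, edgeR adjusted p = 0.00886) and Scg5, a chaperone of the convertase Pcsk2 (-0.58 ± 0.12, edgeR adjusted p = 0.00068). In Sst+Nppb, Th and Ntsr1+Chrna3 edgeR and DESeq2 called none, with 2, 0 and 2 at an unadjusted edgeR p under 0.05. In the graded gate Pam was higher in Clmp (0.64 ± 0.09, edgeR adjusted p = 4.66e-07) and lower in Sst+Nppb (-0.43 ± 0.11, edgeR adjusted p = 0.00641), as was Cpe, the carboxypeptidase that trims these peptides (-0.59 ± 0.11, edgeR adjusted p = 0.000104). Pcsk1 was higher there (0.75 ± 0.16, edgeR adjusted p = 0.000644), so that 1 of 7 was higher and 2 were lower in graded Sst+Nppb, where 13.5% of all genes were called. In the graded gate the 2 gates with the highest Calca thus differed from the other gates in opposite directions for Pam. Each was set against a mean that includes the other, so these 2 values are not separate results. Pam was also lower in graded Gzmbl3+Lpar3 (-0.41 ± 0.14, edgeR adjusted p = 0.0485), and it was not called in plain Sst+Nppb.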

How the data were processed

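Single neurons were sequenced with a modified Smart-seq2 protocol with an 8-base cell barcode and an 8-base UMI at the 3′ end, per the labels' protocols. The authors deposited UMI counts per gene and cell for each batch as whole numbers with no normalization. The submitters' processing notes name UMI-tools, STAR, featureCounts, Subread and SAMtools with build Rnor_6.0. Versions, strand setting and treatment of reads with several matches are not given in the sources used here. UMI totals per batch ran from 3812280 to 26065847. Doublets were not called, since cells were picked one by one by pipette.

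From the deposited counts, UMIs were summed per batch and gate and tested with edgeR 4.0.16 (R 4.3.3; TMM factors, filterByExpr with a minimum count of 10, quasi-likelihood F-test, gate and batch as terms), each gate against the mean of the other tested gates rather than of all 7 others, since thin gates gave no sums. Benjamini-Hochberg adjustment ran over all genes tested, and the 13 gate markers were left out of counts of calls. The method was tested on simulated data with 200 changed genes, at a median absolute log2 difference of 1.99 in Clmp and 2.02 in Th. Of these genes, 199 were recovered with 4 false calls in Clmp among 11536 genes, and 188 with 5 false calls in Th among 11524. Recovery of smaller differences on their own, or in the other gates, was not tested. The Calca to Calcb ratio used sums with at least 20 UMIs of both, 0.5 added to each, and an exact sign-flip permutation test over batches. Likeness used log2 levels with a prior count of 2. Cells of several plain gates (161) or none (346) entered no sum. Named genes were the 8 members, the 2 listed pathway genes with the largest called difference in each direction, and the 3 genes most like each tested member. Further called genes of the pathway lists were named where a sentence needed them. The members, gates and lists were chosen with earlier results of these data known. The graded gate with its alternatives and the Ramp shares over all sums were added after the data were seen. Alternatives were other gate thresholds, overlaps, cell minimums, thinning to 30000 UMIs, RLE factors, DESeq2 1.42.0, no filter, no batch term and each batch left out. Figures and tables used Python 3.11.15 with scipy 1.17.1.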

Additional observations from a re-analysis of the deposited data

Results flagged for a closer look

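In 27 groups of 4 to 10 plain sums tested, 5 held a sum that stood apart from the rest of its group by Dixon's criterion. Chance alone flags about 1 in 20 groups of normally spread values. Levels of Ramp1 and Ramp3 near 0 are not spread in that way, so the count of 5 cannot be set against that rate. Calca was 689 CPM in the Gzmbl3+Lpar3 sum of batch 26, where the other 7 sums reached at most 390. Ramp2 was 21.9 in the Ntsr1+Chrna3 sum of batch 27. Ramp3 was 3.28 in the Th sum of batch 25, still below every Clmp and Sst+Nppb sum. Ramp1 was 4.92 in the Th sum of batch 20, where the other 4 sums were at 0, so that any UMI there would have been flagged. It was 4.62 in the Ntsr1+Chrna3 sum of batch 31.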

How the results depend on the processing

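Leaving out 1 batch at a time lowered 4 of 256 plain and 23 of 336 graded member values below the threshold and turned none around. Under the other alternatives 12 plain values fell below the threshold and 161 kept their call, and 10 graded values fell below it and 91 kept theirs. Among them 1 plain value reversed, Ramp3 in Gzmbl3+Lpar3, at 0.20 where cells of several gates went to the highest. Of the 7 members tested, 1 was called in plain Th, against 0 at a gate threshold of 50 CPM, with overlapping cells to the highest gate, after thinning and with the graded gate, 2 with DESeq2 and 3 with no filter. Ntsr1+Chrna3 had 2, against 4 at 10 CPM, 0 at 50 CPM, 5 with no filter and 1 to 3 with a batch left out. Gzmbl3+Lpar3 had 4, against 2 with overlapping cells to the highest gate. With the graded gate, Th had 0, 1 with DESeq2 and 0 to 1 with a batch left out. Ntsr1+Chrna3 had 2, against 0 at the share of 0.2, 1 after thinning, 4 with at least 5 cells per sum and 1 to 3 with a batch left out, and Nmu+Lad1 had 3, against 1 to 3.

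The log2 Calca to Calcb ratio kept its direction in Clmp under all alternatives run. In the graded gate it missed the threshold at the share of 0.2 (1.44) and with at least 5 cells per sum (2.04), as did Ntsr1+Chrna3 (-2.29 and -3.58). With at least 5 cells per sum, graded Ntsr1+Chrna3 sums were left only in batches 20, 27, 28-3, 30 and 31. Over 5 batches the smallest p the exact sign-flip permutation test can give is 0.0625, so the value of -3.58 could not pass. In the plain gate Ntsr1+Chrna3 was at -0.074 at 50 CPM. Ratio values that did not pass also changed sign. Plain Sst+Nppb was -1.42 at 50 CPM, where it passed, and 0.13 as the median over cells. Plain Gzmbl3+Lpar3 was 0.31 at 10 CPM, 0.62 with at least 5 cells, 0.70 with the graded gate and -0.46 to 0.38 with a batch left out. Graded Trpm8 was -0.21 at 0.2, -0.16 thinned, -0.37 as the median over cells and -0.075 to 0.50 with a batch left out. Graded Th was 1.55 at 0.2, 0.021 thinned and -0.53 to 0.39 with a batch left out. Graded Gzmbl3+Lpar3 was -0.34 with at least 5 cells and -0.032 as the median over cells. Graded Nmu+Lad1 was -0.38 at 0.2, -0.79 thinned, -0.0048 as the median over cells and -0.90 to 1.12 with a batch left out. The cause of these changes was not tested.

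Counts of calls over all genes moved by over 1.5 times in several settings. Plain Th called 96 genes, but 232 with DESeq2, 406 with no filter, 197 with overlapping cells to the highest gate, 35 thinned, 59 without batch 20, 145 without 24, 34 without 25, 42 without 26 and 14 without 34. Ntsr1+Chrna3 called 146, but 334 with DESeq2, 490 with no filter, 392 with at least 5 cells, 312 with overlapping cells, 222 at 10 CPM, 27 at 50 CPM, 69 without batch 20, 96 without 28-3 and 91 without 29. Gzmbl3+Lpar3 called 1876, but 384 with at least 5 cells, 523 at 10 CPM, 793 at 50 CPM and 703 thinned. Sst+Nppb called 668, but 1260 with overlapping cells, 432 with at least 5 cells, 149 at 10 CPM and 359 thinned, and Clmp 2274, but 1178 thinned. In the graded gate, the share of 0.2 gave 906 against 1445 in Clmp, 713 against 1134 in Gzmbl3+Lpar3, 31 against 381 in Ntsr1+Chrna3, 69 against 231 in Nmu+Lad1 and 10 against 71 in Th. DESeq2 gave 615 in Ntsr1+Chrna3, 402 in Nmu+Lad1 and 206 in Th. Thinning gave 860 in Clmp, 705 against 1660 in Sst+Nppb, 373 against 764 in Trpm8 and 251 in Ntsr1+Chrna3, and at least 5 cells per sum gave 929 in Sst+Nppb and 216 in Ntsr1+Chrna3. With 1 batch left out, Nmu+Lad1 called 40 without batch 25, 15 without 26 and 493 without 29, and Trpm8 404 without 20 and 336 without 26. Th called 41 without 25, 40 without 32 and 36 without 34, Ntsr1+Chrna3 253 without 20, 208 without 26 and 248 without 28-3, and Gzmbl3+Lpar3 746 without 29. RLE factors moved the median of all genes by at most 0.03. Th gave no value at 10 CPM and at 5 cells per sum. Gates were paired within batches by the batch term, and without that term no member call was lost, with 2228 genes called in Clmp and 71 in Th.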
